A study of Mus musculus with 41 samples.

Results

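Group 2 innate lymphoid cells (ILC2s) of the mouse small intestine were cultured with IL-25 together with the neuropeptide α-CGRP or with IL-25 alone, and the comparison of these 2 conditions is described here across all genes. It holds 6 of the 41 samples of the series, 3 libraries per condition, chosen by the labels of their culture medium and by no measured value. The IL-25 with CGRP cultures contained the cytokines IL-2, IL-7 and IL-25, all at 100 ng/ml, plus 0.4 μg/ml of α-CGRP. The IL-25 cultures contained the same 3 cytokines without CGRP. A second pair of conditions served as a comparison: 4 CGRP cultures with IL-2, IL-7 and α-CGRP, and 3 base-medium cultures with IL-2 and IL-7 alone. All 13 cultures therefore had IL-2 and IL-7. Each began with 250 KLRG1+ cells sorted from female BALB/cJ mice aged 8 weeks with no mutation or transgene named in the labels, and lasted 3 hours. The labels number the libraries of a condition but do not say whether they came from separate animals, so the p-values measure the spread between libraries, which may be technical. Only KLRG1+ ILC2s were cultured, a single dose and a single time were used, and medium with other ILC2-activating cytokines was not part of these samples.

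CGRP is released by sensory neurons and by some other cells, and binds a receptor made of the calcitonin receptor-like receptor (Calcrl) and the partner protein Ramp1. The receptor couples to the stimulatory G protein Gs (Gnas), which raises cyclic AMP. Cyclic AMP activates protein kinase A, which phosphorylates the transcription factor CREB. CREB acts through the cAMP response element in promoters, and classical products of this route include Crem, Fos and the phosphodiesterase Pde4b. IL-25, an alarmin made by tuft cells in the intestine, acts on ILC2s through Il17rb and is known for inducing the type 2 cytokines IL-5, IL-9 and IL-13.

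Libraries were made with Smart-seq2, which reads whole transcripts of few cells, without molecular identifiers and without strand. After the ribosomal RNA gene Rn45s was left out, the 3 IL-25 with CGRP libraries held 1480077 to 4224832 expected counts and the 3 IL-25 libraries 3421708 to 6887338. Rn45s took 71.0% to 78.7% of all counts in the IL-25 with CGRP libraries and 67.3% to 74.5% in the IL-25 libraries. Levels are given in CPM, the counts of a gene relative to the total of its library, made comparable between libraries with TMM factors (a trimmed mean of log ratios). All 14 ILC2 markers examined had counts in both conditions, and their summed level was 14189 to 20530 CPM in the IL-25 with CGRP libraries and 8972 to 12722 CPM in the IL-25 libraries. Calca and Il5, described below, are members and gave most of that difference. In 7 of the 14 markers every library with CGRP lay above every library without it, where 8.67% of all genes tested did. In 3 markers, Il2ra, Il13 and Thy1, every library with CGRP lay below, where 8.77% of all genes tested did. The ILC2 regulator Gata3 had 2904, 1643 and 2366 CPM in the IL-25 with CGRP libraries, against 1198, 1617 and 1324 CPM in the IL-25 libraries. Markers of T cells summed to 69.6 to 74.8 CPM with CGRP and 39.1 to 73.8 CPM without it, with Cd3d and Cd3e at 3.71 CPM or less in each of these libraries. Among these T cell markers Cd3g had 29.7, 26.4 and 34.6 CPM with CGRP and 8.29, 38.8 and 13.2 CPM without it, Cd8a reached 18.2 CPM with CGRP and Lat 27.8 CPM without it. Markers of ILC3, ILC1 and NK cells summed to 1328 to 1611 CPM with CGRP and 872 to 2286 CPM without it, with Gzma at 755, 673 and 802 CPM with CGRP and 1083, 1053 and 286 CPM without it. B and plasma cell markers summed to 19.5 to 35.7 CPM with CGRP and 11 to 86.3 CPM without it, with Pax5 at 0 in all 6 libraries and Cd79b at 15.4, 14.6 and 17.9 CPM with CGRP and 5.08, 65.7 and 10.5 CPM without it. Mast cell markers summed to 171 to 296 CPM with CGRP and 254 to 303 CPM without it, nearly all of it Kit, and the mast cell protease Cma1 had 2.85, 4.87 and 12.7 CPM with CGRP and 0, 0 and 0.125 CPM without it, groups that did not overlap (adjusted p = 0.153). Myeloid markers summed to 88.3 to 142 CPM with CGRP and 109 to 158 CPM without it, with S100a8 and S100a9 at 0 and Xcr1 giving most of the sum, at 97, 114 and 65.9 CPM with CGRP and 97.1, 77.6 and 128 CPM without it. Epithelial and stromal markers summed to 214 to 244 CPM with CGRP and 303 to 405 CPM without it, groups that did not overlap, with Col1a1 at 0 and Epcam and Pecam1 giving most of the sum. The part of these markers in the results below was not tested.

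Adding CGRP to IL-25 was associated with higher expression of 62 genes and lower expression of 16 among 12618 tested, 0.491% and 0.127% of the genes. The test was edgeR's quasi-likelihood test with Benjamini-Hochberg adjustment at 0.05, and a gene past it is called higher or lower below. The log2 differences ran between 1.07 and 6.32 among the genes called higher, leaving out Palld with its 2 counts in the IL-25 libraries, and between -1.15 and -4.69 among those called lower. In all 78 the values of the 3 IL-25 with CGRP libraries lay wholly above or wholly below those of the 3 IL-25 libraries. Over all genes tested, 8.67% lay wholly above and 8.77% wholly below. The genes called higher included the receptor component Ramp3, the cAMP-inducible repressor Crem, the checkpoint receptor Pdcd1, and the ILC2 products Il5 and Areg. Those called lower included the ribosome-biogenesis genes Rrp12, Nat10 and Wdr12 and the IL-2 receptor chain Il2ra. Without the IL-25 replicate 1 the test called 37 genes, 35 of them among the 78, and without the IL-25 with CGRP replicate 3 it called 50, 47 of them among the 78. Scaling to library totals instead of TMM factors gave a median log2 difference of all genes of -0.25, against -0.01 with TMM factors, and called 46 genes higher and 76 lower, so directions below are relative to the bulk of the genes.

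In the receptor system for CGRP 1 member was called, Ramp3, which pairs with Calcrl to form a receptor for adrenomedullin. Ramp3 had 2340.3, 1244 and 1619 CPM in the IL-25 with CGRP libraries and 287, 434 and 220.1 CPM in the IL-25 libraries. The groups were far apart, and Ramp3 rose 5.53-fold with CGRP (log2 difference 2.47 ± 0.30 SE, edgeR adjusted p = 7.51e-05). Ramp3 lies on chromosome 11, 6658521 to 6677475 (mm10), and each of the 6 fits that left out 1 library called it. Ramp1, the partner that makes Calcrl a CGRP receptor, had 19.4, 18.8 and 23.8 CPM with CGRP and 21.7, 38.2 and 16.9 CPM without it, and was not called (adjusted p = 0.882). Calcrl had 6.28, 31.3 and 14.9 CPM with CGRP and 37.7, 29.8 and 25.7 CPM without it (adjusted p = 0.544), and its groups overlapped. Transcripts of both receptor genes were thus low but present in each condition, and Gnas stood at 479.5, 579 and 426 CPM with CGRP and 403, 462 and 400.1 CPM in IL-25 alone. Of the 12 tested members of this list, 1 was called higher and 0 lower, beside 0.491% and 0.127% of all genes. In 3 members every library with CGRP lay above every library without it, and in 2 below, where 8.67% and 8.77% of all genes did. The 2 below were the arrestin genes Arrb1 and Arrb2, neither of them called (edgeR adjusted p = 0.428 and 0.454). The list's median log2 difference was 0.09 beside -0.01 for all genes tested. Adm, which encodes adrenomedullin, had 10.6, 16 and 1.12 CPM with CGRP and 1.07, 0 and 0 CPM without it, and its adjusted p of 0.229 missed the threshold.

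The cultures also held transcripts of the gene of the peptide itself. Calca, which encodes α-CGRP and calcitonin, had 6456, 3493 and 5148 CPM in the IL-25 with CGRP libraries and 2059, 3226 and 1736 CPM in the IL-25 libraries. Every library with CGRP was above every library without it, but the fitted ratio of 2.15 (SE 0.31 on the log2 scale) did not pass the test (adjusted p = 0.106). Calca can also be spliced to calcitonin mRNA, and a count per gene does not separate the products.

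Crem, Pde4b and Rgs2, known as feedback on the cAMP route and on G proteins, were called higher. Crem, which yields the inducible repressor ICER, had 1258, 1091 and 1468 CPM with CGRP and 338, 455 and 372 CPM in IL-25 alone, a 3.28-fold rise (log2 1.71 ± 0.24 SE, adjusted p = 3.57e-04). Pde4b, a phosphodiesterase that degrades cAMP, had 371, 385 and 276 CPM with CGRP and 147, 101 and 137 CPM without it (log2 1.42 ± 0.30 SE, adjusted p = 0.0191). These were the 2 called members among 30 tested of the cAMP and protein kinase A list, whose median log2 difference was 0.00. Of all genes tested, 0.491% were called higher. Rgs2, which speeds the shut-off of G proteins, had 226, 179 and 226 CPM with CGRP and 49.5, 60.5 and 52.5 CPM without it, and rose 3.89-fold (adjusted p = 3.27e-04). It was the 1 called member of 21 tested in the list of regulators of G protein signalling and other Gs-linked receptors. Akap12, a scaffold that anchors protein kinase A, was among the 10 genes with the lowest p and had 170.0, 263 and 171 CPM with CGRP against 31, 34.4 and 21.8 CPM without it, a 6.93-fold rise (adjusted p = 7.51e-05). Crem, Rgs2 and Akap12 kept their calls whichever of the 6 libraries was left out. Pde4b lost its call without any 1 library other than IL-25 with CGRP replicate 3 (adjusted p up to 0.0948).

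Another pair of receptors that signal through cAMP, chosen after their values were seen, stood just outside the threshold. The proton-sensing receptor Gpr65 had 226, 202 and 238 CPM with CGRP and 88.3, 104 and 122 CPM without it (adjusted p = 0.0593). The adenosine receptor Adora2a had 144, 192 and 159 CPM with CGRP and 69.3, 95.8 and 69.1 CPM without it (adjusted p = 0.087). In both genes every library with CGRP lay above every library without it, as in 8.67% of all genes tested. Of the 21 tested members of their list, 7 lay wholly above in this way and 4 wholly below, and 8 had a negative log2 difference.

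Among 32 tested immediate early genes linked to CREB, Fos alone was called, where 0.491% of all genes were called higher. Fos had 137, 100.2 and 172 CPM in the IL-25 with CGRP libraries and 11.5, 11.9 and 51.3 CPM in the IL-25 libraries, with the IL-25 replicate 3 the highest of its group (log2 2.43 ± 0.44 SE, adjusted p = 0.00541). The list's median log2 difference was 0.62, with 23 members positive, and in 16 members every library with CGRP lay above every library without it, where 8.67% of all genes did. With scaling to library totals, 19 of the 32 were positive and the median was 0.39, beside -0.25 for all genes. Fosb, Jun and Ppp1r15a are members chosen after their values were seen. Fosb had 35.1, 36.2 and 29.4 CPM with CGRP and 9.09, 10.1 and 13 CPM without it (adjusted p = 0.105), and Jun had 271, 107 and 172 CPM with CGRP and 52.4, 63.4 and 97.4 CPM without it (adjusted p = 0.105). Ppp1r15a, a stress-induced phosphatase subunit, had 248, 209 and 253 CPM with CGRP and 88.5, 157 and 93.1 CPM without it (adjusted p = 0.0908). The list of MAP kinase phosphatases and of Sprouty and Spred proteins, which restrain MAP kinase signalling, gave 2 calls among 11 tested, both of them dual-specificity phosphatases. Dusp10 had 68.5, 84.2 and 78.2 CPM with CGRP and 10.2, 10.7 and 17.7 CPM without it (5.89-fold, adjusted p = 5.26e-04). Dusp1 had 92.4, 39.6 and 81.6 CPM with CGRP and 18.5, 15.9 and 21.3 CPM without it (3.84-fold, adjusted p = 0.00862), and its exons overlap those of Ergic1 on the opposite strand, from which unstranded reads cannot be told apart. Dusp10 kept its call whichever of the 6 libraries was left out. Fos lost its call without IL-25 replicate 1 (adjusted p = 0.0576), and Dusp1 without IL-25 with CGRP replicate 1 or 3 or IL-25 replicate 1 or 2 (adjusted p up to 0.071). Fos had a log2 difference of 3.56 without IL-25 replicate 3.

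Promoters of 49 of the 62 genes called higher, 14 of the 16 called lower and 10008 of all genes tested were matched to RefSeq promoters of GRCm38.p6, which run 250 bases before to 50 bases after the transcript start. The full cAMP response element, TGACGTCA, reads alike on both strands and holds the 5-base core TGACG on each. It occurred in 4 of the 49 promoters of genes called higher (8.16%), in 1 of the 14 of genes called lower (7.14%) and in 358 of the 10008 of all genes tested (3.58%). The 5-base core, searched on both strands and including those in full elements, occurred in 16 of 49 (32.7%), 4 of 14 (28.6%) and 3486 of 10008 (34.8%). The genes with the full element were Tinf2, Areg, Tubb2a and Dusp1 among those called higher and Tmem147 among those called lower. The promoter of Crem was not among those matched and was not searched. A match is a string of letters and not a measured site. The 250 bases before the start are shown for the 3 genes called higher that hold the full element and fall under the rule for named genes, so that the element can be read in its context, with the element in capitals, 5′ to 3′ on the gene's strand. The stretches lie at chr14:55681818-55682067 on the minus strand for Tinf2, at chr5:91139349-91139598 on the plus strand for Areg and at chr17:26508473-26508722 on the minus strand for Dusp1. The element began 56, 61 and 143 bases before the start of Tinf2, Areg and Dusp1.
Tinf2: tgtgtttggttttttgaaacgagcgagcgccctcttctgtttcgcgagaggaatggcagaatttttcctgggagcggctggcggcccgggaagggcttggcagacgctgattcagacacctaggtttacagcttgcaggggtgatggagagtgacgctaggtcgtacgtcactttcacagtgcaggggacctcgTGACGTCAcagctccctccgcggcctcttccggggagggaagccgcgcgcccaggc
Areg: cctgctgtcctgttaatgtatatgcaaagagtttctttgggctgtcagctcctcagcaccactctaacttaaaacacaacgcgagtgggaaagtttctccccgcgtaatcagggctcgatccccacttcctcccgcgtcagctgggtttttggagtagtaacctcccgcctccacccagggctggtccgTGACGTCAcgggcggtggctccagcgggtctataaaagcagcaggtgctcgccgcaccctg
Dusp1: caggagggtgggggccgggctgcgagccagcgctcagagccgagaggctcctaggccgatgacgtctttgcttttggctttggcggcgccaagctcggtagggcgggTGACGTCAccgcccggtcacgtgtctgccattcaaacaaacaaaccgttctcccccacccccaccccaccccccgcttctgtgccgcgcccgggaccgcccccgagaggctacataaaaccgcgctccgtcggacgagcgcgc

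Among the ILC2 products, Il5 and Areg rose while the other type 2 cytokines did not pass the test. Il5, on chromosome 11, 53720794 to 53725106 (mm10), encodes the cytokine that sustains eosinophils. It had 4272, 3559.9 and 4215 CPM in the IL-25 with CGRP libraries and 875, 1767 and 1367 CPM in the IL-25 libraries. The lowest library with CGRP was above the highest without it, and Il5 rose 3.01-fold (log2 1.59 ± 0.28 SE, adjusted p = 0.0033). Areg, which encodes the epidermal growth factor receptor ligand amphiregulin and whose promoter is printed above, had 95.8, 87.6 and 68.9 CPM with CGRP and 15, 19.1 and 14.8 CPM without it. It rose 5.17-fold (log2 2.37 ± 0.35 SE, adjusted p = 5.26e-04). Areg kept its call whichever of the 6 libraries was left out. Il5 lost its call without IL-25 replicate 1 (adjusted p = 0.0576).

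Il13, whose product acts on goblet cells and smooth muscle, had 42.5, 41 and 68.1 CPM in the IL-25 with CGRP libraries and 101, 180.3 and 173 CPM in the IL-25 libraries. Every library with CGRP was below every library without it, in the direction opposite to Il5. The log2 difference of -1.58 ± 0.39 SE missed the threshold with an adjusted p of 0.0597, and passed it in 5 of 16 alternative fits, DESeq2 among them. In the cultures without IL-25, Il13 was lower still, at 8.06, 20.6, 12.1 and 7.98 CPM with CGRP and 29.6, 16.6 and 18.7 CPM in base medium. Il9, a mast cell growth factor, had 1590.3, 1201 and 1487 CPM with CGRP and 905, 1881 and 1216 CPM in IL-25 alone, and the groups overlapped (log2 0.10 ± 0.49 SE). Il4 had 38.8, 21.6 and 56.6 CPM with CGRP and 39.3, 50.7 and 23.3 CPM without it, and Il6 had 51.6, 45.2 and 42.5 CPM with CGRP and 45.7, 82.2 and 44 CPM without it. Csf2, which encodes GM-CSF, had 463, 207 and 349 CPM with CGRP and 393, 683 and 328 CPM without it (log2 -0.46 ± 0.35 SE). Of Il9, Il4, Il6 and Csf2, Csf2 had the lowest adjusted p, 0.699. Of the 22 tested ILC2 products 2 were called higher and 0 lower, beside 0.491% and 0.127% of all genes. The list's median log2 difference was 0.19. The growth factor Bmp2 had 26.5, 45.9 and 23.8 CPM with CGRP and 8.83, 5.79 and 14.7 CPM without it (adjusted p = 0.0792). Dgat1, which makes triglycerides, had 243, 352 and 183 CPM with CGRP and 114, 120.4 and 146 CPM without it (adjusted p = 0.16).

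**Figure D1:**
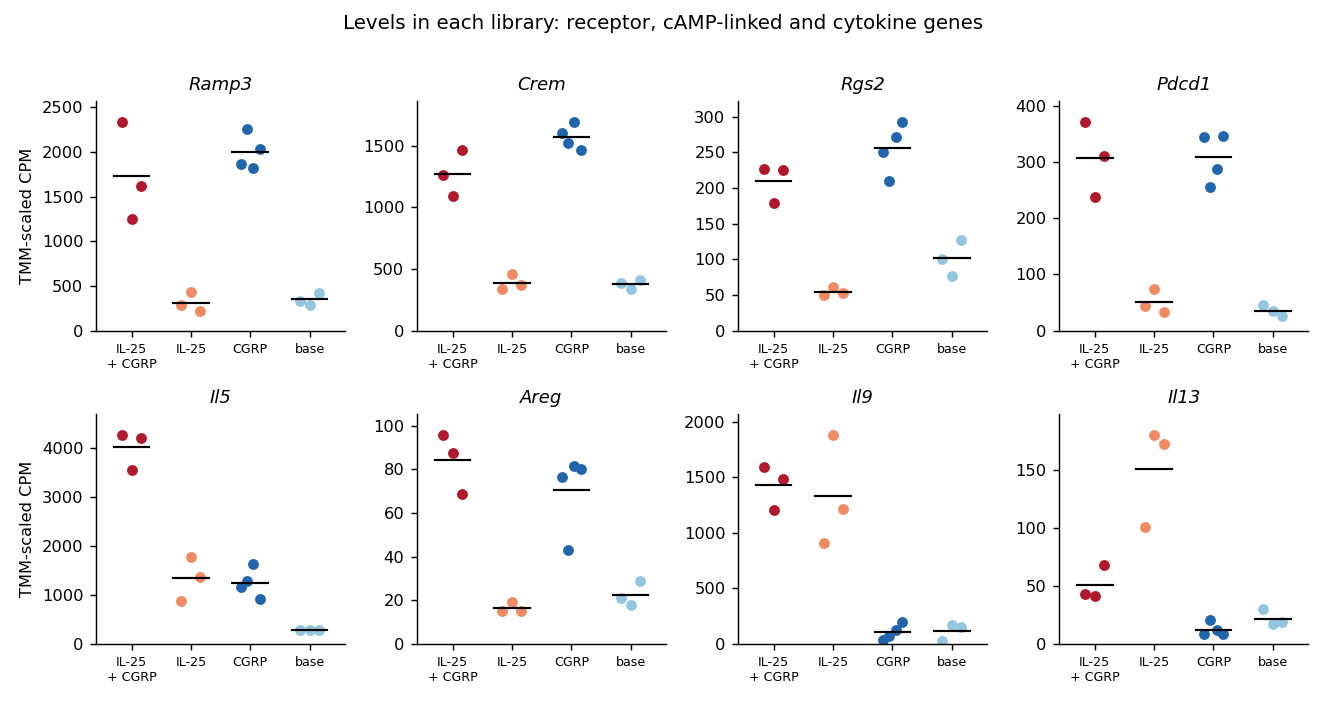
Levels of 8 genes in each library, as TMM-scaled CPM on linear axes that start at 0, with 1 point per library and a line at the mean of the 3 or 4 libraries of a condition. Ramp3, Crem, Rgs2, Pdcd1, Il5 and Areg are higher in every IL-25 with CGRP library than in every IL-25 library, the groups of Il9 overlap, and Il13 lies lower with CGRP without passing the test.

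Among surface receptors, Pdcd1, Tnfrsf9, Il17rb and Ccr8 were called higher and Il2ra was called lower. Pdcd1, the gene of the checkpoint receptor PD-1, had 372, 239 and 312 CPM with CGRP and 44.1, 74.1 and 32.6 CPM in IL-25 alone, a 6.15-fold rise (log2 2.62 ± 0.32 SE, adjusted p = 7.51e-05). Tnfrsf9, the costimulatory receptor 4-1BB, had 2604, 1932 and 2628 CPM with CGRP and 690.0, 955 and 674 CPM without it (3.09-fold, adjusted p = 0.00317). They were the 2 called members of 25 tested costimulatory and inhibitory receptors, where 0.491% of all genes were called higher. The IL-25 receptor chain Il17rb had 419, 389 and 386 CPM with CGRP and 201, 205 and 164 CPM without it (2.1-fold, adjusted p = 0.0333). Il17rb shares exon sequence with Actr8 on the opposite strand, and reads from the shared stretch cannot be assigned.

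Il2ra, the high-affinity chain of the receptor for the IL-2 in the medium, had 353, 458 and 334 CPM with CGRP and 937, 746 and 861 CPM in IL-25 alone, and was 2.22-fold lower (log2 -1.15 ± 0.24 SE, adjusted p = 0.0191). Il17rb and Il2ra were the called members of 23 tested cytokine and alarmin receptors, 1 in each direction. Of all genes, 0.491% were called higher and 0.127% lower. The chemokine receptor Ccr8 had 384, 313 and 362 CPM with CGRP and 121, 226 and 109 CPM without it (adjusted p = 0.0488), the 1 called of 19 tested homing receptors. Pdcd1 and Tnfrsf9 kept their calls whichever of the 6 libraries was left out. Il17rb lost its call without any 1 of the 6 libraries (adjusted p up to 0.202), and Il2ra without IL-25 with CGRP replicate 1 or 3 or IL-25 replicate 1 or 3 (adjusted p up to 0.154). Ccr8 lost its call without any 1 library other than IL-25 replicate 2 (adjusted p up to 0.262). Markers of ILC2s such as Il17rb and Il2ra were thus called in opposite directions, and in bulk libraries fewer cells of a kind and less RNA per cell cannot be told apart.

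Of 34 tested lineage and effector transcription factors, 3 were called, all higher, where 0.491% of all genes were called higher. The list's median log2 difference was -0.07, and 18 of the 34 were negative. In 9 members every library with CGRP lay above every library without it, and in 8 below, where 8.67% and 8.77% of all genes did. The hypoxia-inducible factor Hif1a had 719, 972 and 815 CPM with CGRP and 354, 329 and 332 CPM without it (2.47-fold, adjusted p = 0.00541). Ikzf3, which encodes Aiolos, had 476, 744 and 525 CPM with CGRP and 180.3, 248 and 247 CPM without it (2.58-fold, adjusted p = 0.00951). Ets2 had 92.4, 108 and 95.7 CPM with CGRP and 28.9, 39.9 and 31 CPM without it (2.96-fold, adjusted p = 0.00874). Gata3, whose values are given above, was not called (log2 0.74 ± 0.25 SE, adjusted p = 0.22). The aryl hydrocarbon receptor Ahr, chosen after its values were seen, had 59.9, 184 and 99.8 CPM with CGRP and 367, 224 and 253 CPM without it, and its adjusted p of 0.0819 missed the threshold. Egln3, the hydroxylase that marks HIF proteins for degradation, had 261, 182 and 194 CPM with CGRP and 43.1, 51.5 and 25.7 CPM without it, a 5.33-fold rise (adjusted p = 0.00166). It was the 1 called of 25 tested genes of glycolysis and the hypoxia response, a list with a median log2 difference of 0.37 and 19 positive members. Hif1a and Egln3 kept their calls whichever of the 6 libraries was left out. Ikzf3 lost its call without IL-25 with CGRP replicate 2 or IL-25 replicate 1 (adjusted p up to 0.12), and Ets2 without IL-25 replicate 1 or 3 (adjusted p up to 0.0981).

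The largest differences among the called genes belonged to genes outside these lists. Palld, which encodes the actin-binding scaffold palladin, had 24, 29.2 and 28.3 CPM in the IL-25 with CGRP libraries and 0, 0.289 and 0.125 CPM in the IL-25 libraries. The IL-25 libraries held 2 counts of Palld in all against 202 with CGRP, a ratio of CPM of 201 with a 95% counting interval of 54.9 to 1670 (edgeR adjusted p = 6.82e-05). Actc1, cardiac α-actin, had 29.95, 30.6 and 5.59 CPM with CGRP and 0.267, 0 and 0.376 CPM without it, from 164 and 4 counts (adjusted p = 0.0033). Actc1 is close in sequence to the abundant actins, and Actg1, chosen after its values were seen, had 23545, 19431 and 20128 CPM with CGRP and 5953, 8202 and 5364 CPM without it (3.23-fold, adjusted p = 0.00299), so how reads were divided between the actin genes is uncertain. Palld, Actc1 and Actg1 kept their calls whichever of the 6 libraries was left out. Actc1 had a log2 difference of 7.01 without IL-25 replicate 3.

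Plaur, the receptor for the protease urokinase, had 75.6, 73.7 and 73 CPM with CGRP and 7.22, 2.89 and 7.65 CPM in IL-25 alone, a 12.2-fold rise (log2 3.61 ± 0.53 SE, adjusted p = 5.34e-04). Fzd4, a Frizzled receptor for Wnt ligands, had 24.8, 35.5 and 11.9 CPM with CGRP and 0, 1.16 and 2.13 CPM without it (log2 4.29 ± 0.90 SE, adjusted p = 0.0191). The zinc-finger factor Plagl1 had 41.1, 48.7 and 49.9 CPM with CGRP and 6.15, 9.55 and 6.39 CPM without it (6.33-fold, adjusted p = 0.0113). Dppa2, a gene best known from pluripotent cells, had 18.5, 31.3 and 24.6 CPM with CGRP and 0.802, 6.66 and 0.376 CPM without it (adjusted p = 0.0455). Plaur kept its call whichever of the 6 libraries was left out. Fzd4 lost its call without IL-25 with CGRP replicate 1 or 2 or IL-25 replicate 1 or 2 (adjusted p up to 0.106), and Plagl1 without IL-25 replicate 1 or 3 (adjusted p up to 0.0981). Dppa2 lost its call without any 1 library other than IL-25 replicate 2 (adjusted p up to 0.198). Dppa2 had a log2 difference of 5.42 without IL-25 replicate 2 and 2.74 without IL-25 replicate 3. Fzd4 had a log2 difference of 5.33 without IL-25 replicate 3.

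The other genes among the 10 with the lowest p were Tgm2, Hs3st1, Tinf2 and Pdlim1. Tgm2, a transglutaminase that cross-links proteins, had 1495, 2396 and 1511 CPM with CGRP and 303, 507 and 198 CPM without it (5.36-fold, adjusted p = 1.61e-04). Hs3st1, which sulfates heparan chains, had 1713, 1132 and 1382 CPM with CGRP and 337, 392 and 218 CPM without it (4.46-fold, adjusted p = 1.29e-04). Tinf2, a telomere shelterin subunit whose promoter is printed above, had 219.7, 136 and 162 CPM with CGRP and 23, 41.7 and 17 CPM without it (6.4-fold, adjusted p = 1.61e-04). Pdlim1, an adaptor of the actin cytoskeleton, had 345, 230.2 and 330.3 CPM with CGRP and 38, 95.5 and 48.4 CPM without it (5-fold, adjusted p = 3.57e-04). Tgm2, Hs3st1, Tinf2 and Pdlim1 kept their calls whichever of the 6 libraries was left out. The exons of Tgm2 and Tinf2 overlap those of Rprd1b and Gmpr2 on the opposite strand. Of the 78 called genes 11 had such an overlap with a protein-coding gene on either strand, the others being Dusp1, Hif1a, Hirip3, Il17rb, Isy1, Ppp1r14b, Synj2bp, Wdr12 and Zfp652.

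Further genes called higher, chosen after their values were seen, had moderate differences. Ret, the receptor tyrosine kinase for glial-derived neurotrophic factors, had 143, 258 and 204 CPM with CGRP and 74.1, 72.7 and 56.8 CPM without it (2.97-fold, adjusted p = 0.00365). Lmo4, a LIM-only transcriptional cofactor, had 1829, 1006 and 1612 CPM with CGRP and 365, 676 and 478 CPM without it (2.93-fold, adjusted p = 0.00649). Fhl2, another LIM-domain cofactor, had 315, 225 and 181 CPM with CGRP and 60.2, 91.8 and 62.4 CPM without it (3.37-fold, adjusted p = 0.00162). Serpinb9, an inhibitor of granzyme B, had 755, 827 and 714 CPM with CGRP and 318, 252 and 279 CPM without it (2.71-fold, adjusted p = 0.00862), and it has close paralogs among which reads may be divided. Heme oxygenase 1, Hmox1, had 124, 74.4 and 130.3 CPM with CGRP and 24.6, 27.2 and 50.5 CPM without it (3.2-fold, adjusted p = 0.0237). The proprotein convertase Furin had 1535, 2855 and 1802 CPM with CGRP and 851, 929 and 775 CPM without it (2.42-fold, adjusted p = 0.0191). Tubb2a, a β-tubulin with near-identical paralogs and the full element in its promoter, had 76.7, 45.2 and 60.3 CPM with CGRP and 16, 21.4 and 12 CPM without it (3.72-fold, adjusted p = 0.00804). Another 23 called genes, all of them higher, had log2 differences between 1.11 and 2.42. Ret and Fhl2 kept their calls whichever of the 6 libraries was left out. Tubb2a lost its call without IL-25 with CGRP replicate 1 or IL-25 replicate 1 or 3 (adjusted p up to 0.0728), and Lmo4 without IL-25 replicate 1 (adjusted p = 0.0955). Serpinb9 lost its call without IL-25 replicate 3 (adjusted p = 0.0586), and Hmox1 without IL-25 with CGRP replicate 1 or 3 or IL-25 replicate 1 or 2 (adjusted p up to 0.161). Furin lost its call without IL-25 with CGRP replicate 2 or IL-25 replicate 1 or 3 (adjusted p up to 0.12).

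Rrp12, Nat10, Wdr12 and Cad, which act in ribosome production or nucleotide synthesis, were among the 16 genes called lower. Rrp12, a factor of ribosomal RNA processing, had 10.6, 10.4 and 6.7 CPM in the IL-25 with CGRP libraries and 82.4, 67.7 and 50.5 CPM in the IL-25 libraries, and was 7.25-fold lower (log2 -2.86 ± 0.41 SE, adjusted p = 3.76e-04). Cad, which catalyses the first steps of pyrimidine synthesis, had 14.8, 23 and 27.9 CPM with CGRP and 83.7, 46.6 and 71.1 CPM without it (3.08-fold lower, adjusted p = 0.029). These were the 2 called members of 24 tested Myc targets and ribosome-biogenesis genes, beside 0.127% of all genes called lower. All 24 had a negative log2 difference, under TMM factors, DESeq2's size factors and library totals alike, with a median of -0.69, and in 15 every library with CGRP lay below every library without it, where 8.77% of all genes did. Subunits of RNA polymerase I, which transcribes ribosomal RNA, did not pass the test, and they and Nop16 were chosen after their values were seen. Polr1a had 25.4, 15.3 and 12.7 CPM with CGRP and 52.1, 45.7 and 64.3 CPM without it (adjusted p = 0.0694). Polr1b had 28.8, 18.8 and 29.8 CPM with CGRP and 82.1, 58.2 and 64.2 CPM without it (adjusted p = 0.0694). Nop16, a nucleolar protein, had 78.7, 41 and 29.4 CPM with CGRP and 102, 152 and 124 CPM without it (adjusted p = 0.0694). Rrp12 kept its call whichever of the 6 libraries was left out. Cad lost its call without any 1 library other than IL-25 replicate 2 (adjusted p up to 0.2). Rn45s, the ribosomal RNA itself, was left out of the totals, and its share is given above.

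Of the genes called lower outside that list, Nat10 and Wdr12 also act in ribosome production. Nat10, which acetylates ribosomal RNA, had 3.42, 5.56 and 16.4 CPM with CGRP and 54, 57.3 and 89.9 CPM without it (7.86-fold lower, adjusted p = 0.00317). Wdr12, a subunit of the complex that matures the large ribosomal subunit, had 19.97, 26.4 and 26.8 CPM with CGRP and 88.8, 95.5 and 74.3 CPM without it (3.54-fold lower, adjusted p = 0.0148). Gemin5, the RNA-binding subunit of the survival-motor-neuron complex, had 17.1, 7.65 and 10.1 CPM with CGRP and 53.2, 48.9 and 56.2 CPM without it (4.43-fold lower, adjusted p = 0.0113). Ltb, which encodes lymphotoxin β, had 114, 100.2 and 122 CPM with CGRP and 239.9, 348 and 269.9 CPM without it (2.54-fold lower, adjusted p = 0.0128). Eya2, a transcriptional cofactor with phosphatase activity, had 3.42, 4.17 and 3.72 CPM with CGRP and 24.9, 17.1 and 19.4 CPM without it (5.45-fold lower, adjusted p = 0.0153). Nat10 kept its call whichever of the 6 libraries was left out. Wdr12 lost its call without IL-25 with CGRP replicate 1 or 3 or IL-25 replicate 1 (adjusted p up to 0.112), and Gemin5 without IL-25 with CGRP replicate 2 or 3 (adjusted p up to 0.0872). Ltb lost its call without IL-25 with CGRP replicate 1, 2 or 3 or IL-25 replicate 2 (adjusted p up to 0.0604), and Eya2 without IL-25 with CGRP replicate 1 or 3 or IL-25 replicate 1 (adjusted p up to 0.112). Nat10 had a log2 difference of -3.98 without IL-25 with CGRP replicate 3.

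The remaining genes called lower lay outside the lists. The peptidase gene Thop1 had 2.28, 0 and 1.12 CPM with CGRP and 9.09, 23.7 and 21.8 CPM without it (adjusted p = 0.0341). Ppp1r14b, an inhibitor of protein phosphatase 1, had 2.28, 5.56 and 4.1 CPM with CGRP and 25.7, 20.8 and 27.3 CPM without it (adjusted p = 0.0455). The zinc-finger gene Zfp652 had 5.13, 2.78 and 5.21 CPM with CGRP and 36.6, 16.8 and 19.9 CPM without it (adjusted p = 0.0445). St6galnac4, a sialyltransferase, had 11.1, 36.9 and 10.8 CPM with CGRP and 94.1, 110.3 and 44.1 CPM without it (adjusted p = 0.0213). Hirip3, a histone-binding partner of HIRA, had 3.71, 6.96 and 7.45 CPM with CGRP and 26.7, 31.3 and 20.3 CPM without it (adjusted p = 0.0443). Tanc2, a scaffold protein, had 27.7, 27.8 and 36.1 CPM with CGRP and 115, 73.5 and 95 CPM without it (adjusted p = 0.0174), and Tmem147 had 39.4, 31.3 and 19.7 CPM with CGRP and 84.8, 111 and 69.9 CPM without it (adjusted p = 0.0203). Thop1 lost its call without any 1 library other than IL-25 replicate 1 (adjusted p up to 0.156), and Ppp1r14b without any 1 of the 6 libraries (adjusted p up to 0.244). Zfp652 lost its call without any 1 library other than IL-25 replicate 2 (adjusted p up to 0.221), and St6galnac4 without IL-25 with CGRP replicate 1 or 3 or IL-25 replicate 1 or 2 (adjusted p up to 0.17). Hirip3 lost its call without any 1 of the 6 libraries (adjusted p up to 0.241), and Tanc2 without IL-25 with CGRP replicate 1 or 2 or IL-25 replicate 1 or 3 (adjusted p up to 0.115). Tmem147 lost its call without IL-25 with CGRP replicate 2 or 3 or IL-25 replicate 1 or 2 (adjusted p up to 0.163). St6galnac4 had a log2 difference of -2.92 without IL-25 with CGRP replicate 2. Thop1 had a log2 difference of -4.69 without IL-25 with CGRP replicate 1.

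Reln, which encodes the secreted glycoprotein reelin, had the most negative difference of the called genes. It had 0.856, 1.39 and 1.49 CPM in the IL-25 with CGRP libraries and 52.4, 15.1 and 29.1 CPM in the IL-25 libraries (log2 -4.69 ± 0.90 SE, adjusted p = 0.00838), and at most 1.54 CPM in any culture without IL-25. Reln is also a marker of lymphatic endothelial cells. A list of 10 such markers, Reln among them and chosen after the values were seen, summed to 11.1 to 13.8 CPM in the IL-25 with CGRP libraries and 114 to 177 CPM in the IL-25 libraries. The sums were 3.63 to 20.4 CPM in the CGRP cultures and 8.19 to 33.7 CPM in base medium. Lyve1 had 2.57, 0.696 and 0.372 CPM with CGRP and 27.3, 11.9 and 34.1 CPM in IL-25 alone, and Mmrn1 had 4.28, 3.48 and 1.12 CPM with CGRP and 36.9, 18.5 and 18.4 CPM in IL-25 alone, neither of them called. The defining factor Prox1 had 1.14, 0.696 and 1.86 CPM with CGRP and 0.267, 0.868 and 1.25 CPM without it, and Pdpn had 1.43, 0.696 and 1.49 CPM with CGRP and 1.87, 2.32 and 1.13 CPM without it. The part of these cells in the Reln value was not tested. Reln lost its call without IL-25 with CGRP replicate 1 or IL-25 replicate 1 (adjusted p up to 0.156).

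**Figure D2:**
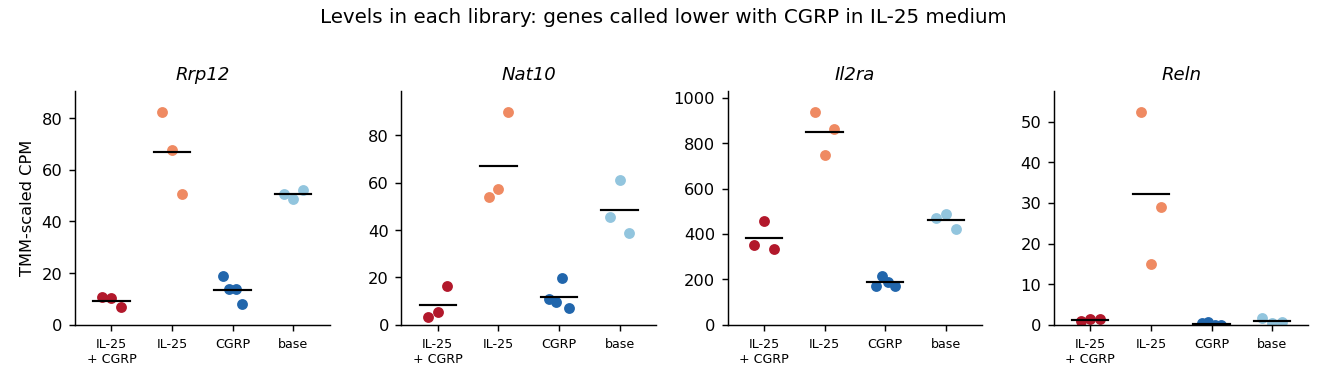
Levels of 4 genes called lower with CGRP in IL-25 medium, as TMM-scaled CPM per library on linear axes that start at 0, with a line at the mean of each condition. Rrp12, Nat10 and Il2ra are also low in the 4 CGRP cultures relative to base medium, whereas Reln is above 1.54 CPM only in the 3 IL-25 libraries.

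Further lists covered NF-kB subunits and feedback genes, STAT feedback and survival genes, the cell cycle, and the heat shock and unfolded protein response. Others covered cholesterol and fatty acid synthesis and the interferon response. These lists held 0 called genes in either direction by edgeR. Of all genes, 0.491% were called higher and 0.127% lower, so 0 calls in lists of 15 to 26 tested members is near that share. Their median log2 differences lay between -0.18 for STAT feedback and 0.54 for the heat shock and unfolded protein response, where 20 of 24 members were positive. Socs2, a STAT-induced suppressor of cytokine signalling chosen after its values were seen, had 370.3, 258 and 405 CPM with CGRP and 151, 204 and 149 CPM without it (adjusted p = 0.0627).

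**Figure D3:**
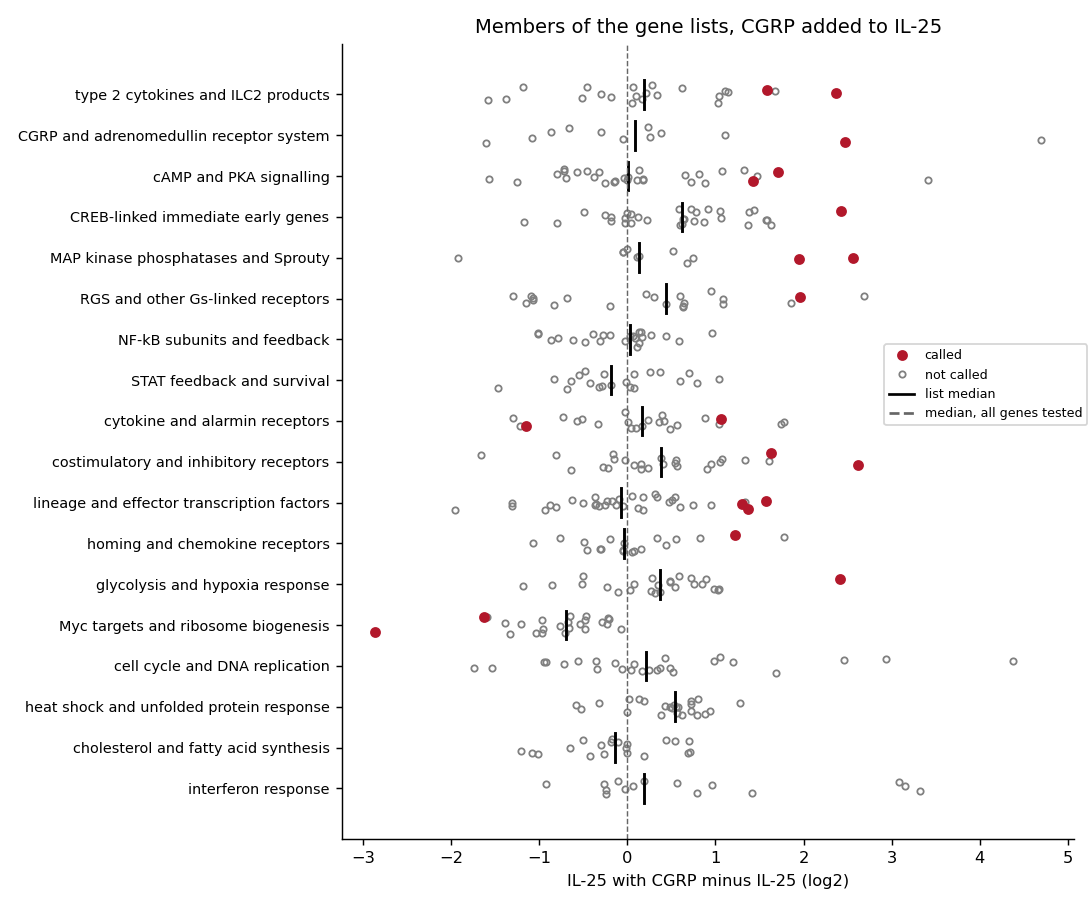
Log2 difference of IL-25 with CGRP minus IL-25 for each tested member of 18 gene lists, 1 list per row, with called members filled, list medians as black bars and the median of all 12618 genes as a dashed line. The Myc and ribosome-biogenesis row lies wholly below 0, with a median of -0.69, and the immediate early gene row has the highest median, 0.62.

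The same addition of CGRP was also made without IL-25, in 7 other libraries. They entered the comparison above through the joint fit, for the TMM factors, the estimate of spread and the gene filter. Their counts are not part of its 2 means. The calls of both comparisons thus rest on the same estimates of spread. CGRP against base medium gave 134 genes higher and 50 lower, 1.06% and 0.396% of those tested. Of the 78 genes called with IL-25, 57 were called in the same direction without it, 73.1% of the 78 and 31.0% of the 184. The sign was the same for 76 of the 78, and for 60.8% of all genes tested. Across the 78 genes the differences with and without IL-25 had a Pearson correlation of 0.91, and across all 12618 genes of 0.17, both given as descriptions since genes are not independent and the 78 were selected by their difference with IL-25. The count of 184 fell to 105, 64 and 90 without base replicates 1, 2 and 3.

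Ramp3 had 1866, 2261, 1825 and 2034 CPM in the CGRP cultures and 336, 289 and 423 CPM in base medium, a log2 difference of 2.51 beside 2.47 with IL-25. Crem had 1600.2, 1518, 1693 and 1460.3 CPM in the CGRP cultures and 387, 339 and 412 CPM in base medium (log2 2.05, against 1.71 with IL-25). Il5 had 1162, 1273, 1635 and 921 CPM in the CGRP cultures and 276, 281 and 289 CPM in base medium (log2 2.14, against 1.59 with IL-25), so that the cultures with both additions had the highest Il5 and those with neither the lowest. Areg, in contrast, had 76.6, 43.2, 81.6 and 80.01 CPM in the CGRP cultures and 20.8, 18 and 28.8 CPM in base medium. The IL-25 libraries, at 15, 19.1 and 14.8 CPM, overlapped those of base medium, with a mean of 16.3 CPM against 22.5 CPM. For Rrp12 the CGRP cultures had 18.8, 14, 13.8 and 7.98 CPM and base medium 50.7, 48.5 and 52.2 CPM (log2 -1.88, against -2.86 with IL-25). Il2ra had 170.2, 216, 189 and 170.4 CPM in the CGRP cultures and 471, 489 and 423 CPM in base medium (log2 -1.31, against -1.15 with IL-25).

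Whether the CGRP difference itself differed with and without IL-25 was tested by the interaction, which called 0 of 12618 genes (0%) by edgeR. The lowest adjusted p was 0.658, 554 genes had an unadjusted p under 0.05, and DESeq2 called 0. The 2 genes with opposite signs were Eya2, at log2 -2.45 with IL-25 and 0.24 without it (interaction -2.69 ± 0.65 SE, adjusted p = 0.999), and Synj2bp, at 1.25 with IL-25 and -0.01 without it (interaction 1.27 ± 0.40 SE, adjusted p = 0.999). Il5 had an interaction of -0.56 ± 0.37 SE and Il13 of -0.74 ± 0.53 SE. A missed threshold in this design does not show that the differences were equal.

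**Figure D4:**
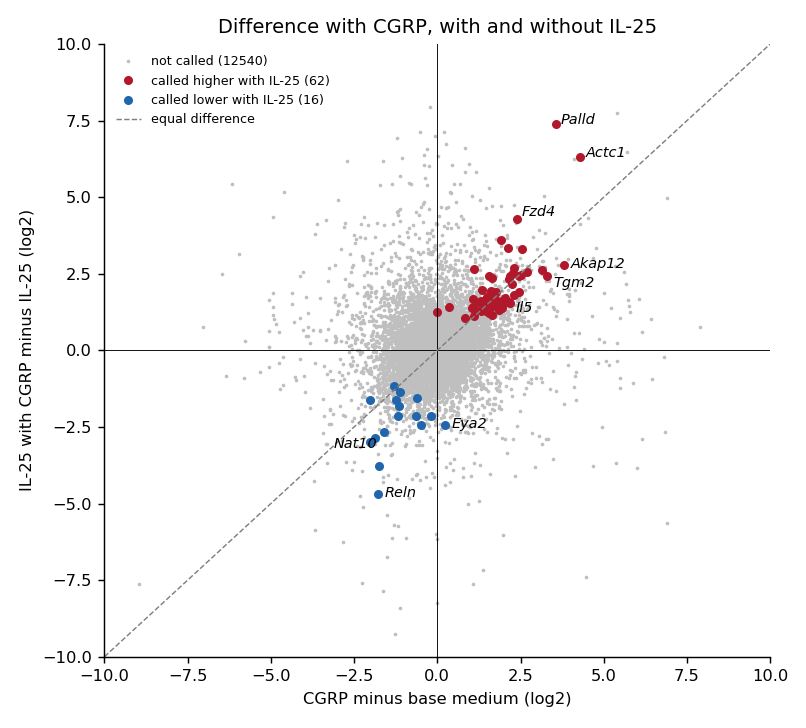
Log2 difference with CGRP in IL-25 medium (vertical) against that without IL-25 (horizontal), 1 point per tested gene, with the 62 genes called higher in red, the 16 called lower in blue and the others in grey. The called genes lie mostly in the upper right and lower left corners, 76 of 78 with the same sign, and the position of Palld rests on 2 counts in the IL-25 libraries.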

How the data were processed

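RNA of 13 cultures was sequenced, and 28 single-cell samples of the series were not used here. Per the submitters' processing notes the series was processed with bcl2fastq, Bowtie2, RSEM and Cell Ranger on build mm10, whose versions are not given in the sources used here. All values used are the expected counts per gene that the authors deposited, not normalized, and they were rounded to whole numbers. Rn45s was left out of the table and of library totals. Genes were kept by filterByExpr (12618 of 23420). All 13 libraries were fitted together with 1 mean per condition, TMM factors and the quasi-likelihood test of edgeR 4.0.16 under R 4.3.3, and p-values were adjusted over all genes (Benjamini-Hochberg, threshold 0.05). The fitting code was tested on simulated data. DESeq2 1.42.0, other scalings and filters, covariates and left-out libraries were the alternatives. Mouse positions are from GENCODE M21. The members and lists were chosen with earlier results of these data known. Named genes were the 15 largest differences per direction among called genes of at least 10 CPM, the 10 lowest p, the called members of each list (at most 4 per direction) and any tested member of the cytokine and receptor lists, with additions marked as chosen after their values were seen. A result that this rule names is not reported here. Counting intervals cover counting error only.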

Additional observations from a re-analysis of the deposited data

Results flagged for a closer look

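With 4 libraries, the CGRP cultures were the group in which a single library could be set against the others, by the gap to its neighbour as a share of the group's range (Dixon's 95% value). Of 80 genes examined, 9 had such a library, where chance gives about 1 group in 20. The CGRP replicate 2 stood apart in 6 of them: it was low in Areg (43.2 CPM) and in Actg1 (10221 CPM), and high in Csf2 (116 CPM), Hs3st1 (1367 CPM), Lmo4 (2011 CPM) and the gene model 4932438H23Rik (206 CPM). The CGRP replicate 4 was apart in Gemin5 (26.1 CPM) and Ikzf3 (490.5 CPM), and the CGRP replicate 1 in Mmrn1 (4.18 CPM). The CGRP replicate 2 also had the lowest median correlation with the other libraries, 0.85. The comparison of IL-25 with CGRP against IL-25 uses its values only for the TMM factors, the estimate of spread and the gene filter.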

How the results depend on the processing

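The 78 calls with IL-25 became 296 with DESeq2, 236 with no filter on low counts, 163 in a fit of the 6 libraries alone and 122 with scaling to library totals. They numbered 37 to 80 when 1 library was left out. The 184 calls of CGRP against base medium became 503 with DESeq2, 336 with no filter and 71 with the Rn45s share as a covariate, and 64 to 207 when 1 library was left out. The interaction gave 18 calls with no filter on low counts. The causes were not tested. Whether the replicate numbers pair the libraries is not given in the labels. Deviations of same-numbered IL-25 with CGRP and IL-25 libraries correlated at -0.04, -0.10 and -0.03. Those of CGRP and base-medium libraries correlated at -0.03, -0.13 and 0.05. Correlations over all genes cannot exclude a pairing that affects few genes. With the number as a block the calls were 59 with IL-25 (117 in the 6 libraries alone), 106 without IL-25 and 0 for the interaction. Of 55 called genes followed through the alternatives, 21 were called under all 16 alternatives. None of the 55 changed sign under them. Among 25 named genes that were not called, 5 did: with library totals Gnas was at -0.00156, Il4 at -0.17 and Il9 at -0.13, and with 1 library left out Il4 ran between -0.31 and 0.33, Il6 between -0.454 and 0.0355, Il9 between -0.14 and 0.41 and Ramp1 between -0.52 and 0.0926. The shallowest library, the IL-25 with CGRP replicate 2 with 1480077 counts, limits genes of a few CPM.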

Other observations

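Some genes of other cell types varied between libraries of 1 condition. Il22, a cytokine typical of ILC3s, had 532, 506 and 70.01 CPM in the IL-25 with CGRP libraries and 19.3, 605 and 232 CPM in the IL-25 libraries. The groups overlapped. Lyz2, the lysozyme gene of myeloid cells, had 0, 229, 0 and 5.56 CPM in the 4 CGRP libraries and 0, 0 and 0.491 CPM in base medium. The mast cell proteases Mcpt1, Mcpt2 and Mcpt4 stood at 0.822 CPM or less in every library, unlike Cma1, whose values with IL-25 are given above and which had 0.62, 0.206, 0 and 4.83 CPM in the CGRP cultures and 0, 5.84 and 3.11 CPM in base medium. Kit had 164, 287 and 252 CPM with CGRP and 301, 265 and 251 CPM in IL-25 alone.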
